A study of Homo sapiens with 2 samples.

Results

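Peaks of chromatin accessibility that lie in satellite-like repeats with a period close to 171 bp were examined in ATAC-seq peak lists of 293T cells. The members were all deposited peaks on chromosomes 1 to 22, X and Y for which more than 50% of the bases of the peak plus 300 bp on either side equal the base 169, 170, 171, 172 or 173 bp further on, at any one of these shifts, in the GRCh38 reference. This rule uses the reference sequence and the position of the peak only, and found 820 members among 57894 peaks, 332 of 35515 in the control list and 488 of 22379 in the list of treated cells. ATAC-seq reads accumulate where the Tn5 transposase can reach the DNA, that is, in open chromatin. The cells, 293T, derive from human embryonic kidney and express the large T antigen of SV40. Control cells received fresh medium, and a deposited label names PBS as their treatment. MGO cells received medium with 0.5 mM methylglyoxal (MGO), a reactive by-product of glycolysis that forms adducts on histones. One library of 50000 cells per condition was analysed, with 12 h of culture in the presence or absence of MGO, so no difference between the conditions has a replicate check. The 95% intervals cover counting error only and treat peaks as independent. Depth was equalized between the libraries by the study, but the lists carry no read counts.

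Alpha satellite is the tandem repeat of human centromeres. Its units, called monomers, are joined head to tail, and in much of the centromere a run of diverged monomers is itself repeated many times as a higher-order repeat. The centromere-specific histone CENP-A sits on this DNA, and the protein CENP-B binds a short motif, the CENP-B box, in some of the monomers. In GRCh38 most centromeres are models built from unplaced reads rather than assembled sequence. Other satellites near centromeres consist of much shorter units, of which human satellites II and III are diverged repeats of ATTCC.

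The label of alpha satellite held for 561 of the 820 members and not for the other 259. The 561, 204 in control and 357 in MGO, matched themselves at over 50% of bases at none of the shifts from 2 to 160 bp, and are called 171-bp members here. Their mean match was 55.5% at a shift of 171 bp, 24.3% at 5 bp and 50.7% at 340 bp, against 26.6% at 171 bp in other distal peaks. Of these 561, 522 had their best match at 171 bp and 29 at 169 bp. The 259 short-period members, 128 in control and 131 in MGO, also passed 50% at a shift of 160 bp or less. They matched at 60.1% at 5 bp and 56.1% at 170 bp, a shift that is a multiple of 5 bp. Other distal peaks are all non-members without a transcription start site (TSS) of a protein-coding or lncRNA gene within 1000 bp, 20244 in control and 8679 in MGO.

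**Figure D1:**
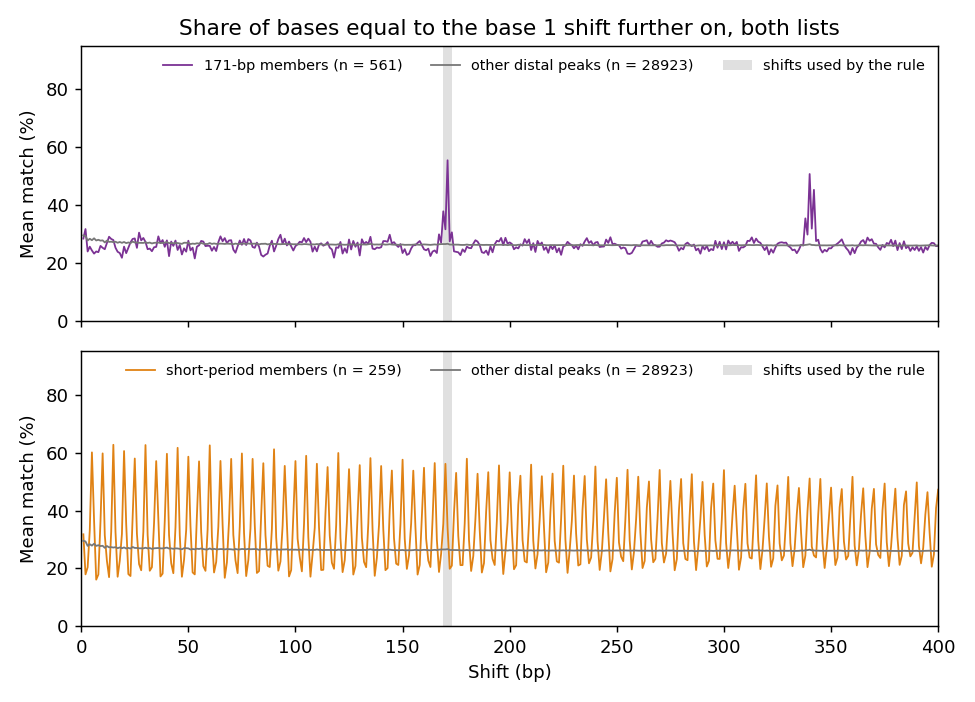
Mean share of bases equal to the base 1 shift further on (%, y axis) by shift (bp, x axis), over peaks of both lists with 300 bp on either side. The 171-bp members (upper panel) reach 55.5% at 171 bp and 50.7% at 340 bp, while the short-period members (lower panel) have raised values along the whole range of shifts, such as 60.1% at 5 bp. Other distal peaks are flat, with 26.6% at 171 bp.

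The sequences below show the unit behind each kind of member, all on the plus strand of GRCh38. The first pair consists of consecutive units at chr17:24188331-24188501 and chr17:24188502-24188672, inside the 171-bp control member of highest −log10 p. Capitals mark the 135 positions, 78.9% of the unit, at which both carry the same base.
First unit: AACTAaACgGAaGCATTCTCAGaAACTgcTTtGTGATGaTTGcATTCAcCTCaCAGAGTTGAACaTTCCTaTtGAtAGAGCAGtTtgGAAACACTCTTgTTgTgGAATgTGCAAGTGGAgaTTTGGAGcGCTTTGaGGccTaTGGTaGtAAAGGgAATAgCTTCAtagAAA
Second unit: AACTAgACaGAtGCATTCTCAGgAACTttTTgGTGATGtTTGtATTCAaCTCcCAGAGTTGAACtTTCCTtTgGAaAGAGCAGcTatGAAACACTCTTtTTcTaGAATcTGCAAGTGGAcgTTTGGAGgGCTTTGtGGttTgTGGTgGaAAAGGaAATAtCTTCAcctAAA

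The next sequences are 171 bp of members from the centromeric arrays of chromosomes 7, X and 18, the last being the MGO member of highest −log10 p among those of the 171-bp kind without a control peak. Capitals mark the core of the CENP-B box, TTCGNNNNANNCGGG, in which N is any base.
chr7:59908573-59908743, in both lists: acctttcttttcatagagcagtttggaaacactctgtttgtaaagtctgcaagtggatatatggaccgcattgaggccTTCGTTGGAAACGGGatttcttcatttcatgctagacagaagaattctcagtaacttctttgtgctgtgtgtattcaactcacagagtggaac
chrX:58618898-58619068, in both lists: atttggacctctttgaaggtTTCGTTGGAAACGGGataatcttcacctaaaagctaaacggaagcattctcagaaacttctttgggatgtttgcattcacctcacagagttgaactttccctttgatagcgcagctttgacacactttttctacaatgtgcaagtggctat
chr18:18284464-18284634, in the MGO list only: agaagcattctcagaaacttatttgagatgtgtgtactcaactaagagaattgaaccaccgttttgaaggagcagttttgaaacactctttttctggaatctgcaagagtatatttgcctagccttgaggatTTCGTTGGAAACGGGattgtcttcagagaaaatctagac

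The short-period members look different. The strongest of them holds the ATTCC unit, here 100 bp at chr5:49658349-49658448 with capitals where a base equals the base 5 bp further on, and the strongest without a period of 5 bp holds a unit of 9 bp at chr1:31431958-31432057, with capitals in the same sense.
Unit of 5 bp: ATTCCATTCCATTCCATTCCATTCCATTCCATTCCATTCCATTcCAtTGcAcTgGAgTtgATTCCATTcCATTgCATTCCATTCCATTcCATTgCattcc
Unit of 9 bp: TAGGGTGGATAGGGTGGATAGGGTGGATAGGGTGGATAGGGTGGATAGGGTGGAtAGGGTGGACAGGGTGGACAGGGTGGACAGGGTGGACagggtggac

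The 171-bp members shared 1 unit, which the rule did not ask for. The first 171 bases of the strongest 171-bp control member were aligned to every peak with its flanks, on both strands. All 561 of the 171-bp members, the source of the unit included, held a stretch of at least 70% identity, with medians of 77.8% in control and 77.2% in MGO. Of the short-period members 0 of 259 did, and of the other distal peaks 0.627% in control and 2.89% in MGO. Most of the latter, 119 of 127 in control and 238 of 251 in MGO, had a match just below the rule's limit. Among all peaks with a match from 40 to 50%, these were 119 of 195 and 238 of 366. The unit was thus not particular to the members. The difference from other distal peaks was 99.4 percentage points in control (Newcombe interval 97.5 to 99.5) and 97.1 in MGO (96.0 to 97.4). The CENP-B box core, searched on both strands, was present in 201 of 204 control and 346 of 357 MGO members of the 171-bp kind. It was present in 0 of 259 short-period members, and in 0.672% of other distal control peaks and 2.85% of other distal MGO peaks. In the 171-bp members its median density was 2.27 matches per kb in control and 2.34 in MGO. The match of a motif says nothing of the binding of CENP-B. Their median GC content was 39.2% in both lists, against 44.5% and 47.3% in other distal peaks.

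The number of members was higher in MGO than in control, whereas the whole list was shorter. Members of either kind numbered 332 in control and 488 in MGO, a ratio of 1.47 (exact binomial interval 1.28 to 1.69). Their share was 0.935% in control and 2.18% in MGO, or 1.25 percentage points higher (Newcombe interval 1.03 to 1.47). The rise belonged to the 171-bp members, with 204 in control and 357 in MGO, a ratio of 1.75 (1.47 to 2.09). The short-period members numbered 128 and 131, a ratio of 1.02 (0.796 to 1.32). The same ratio was 0.429 for other distal peaks (0.418 to 0.440), 0.884 for peaks within 1000 bp of a TSS (0.864 to 0.905) and 0.630 for all peaks (0.620 to 0.641). The DNA under 171-bp members came to 115 kb in control and 204 kb in MGO, a ratio of 1.77.

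The higher number in MGO was seen on most chromosomes. The chromosomes were read from the same libraries and their 171-bp members share a unit, so they are not separate observations. The 171-bp members were more numerous in MGO on 21 of the 22 chromosomes that held any, and fewer only on chromosome 12, with 1 in control and 0 in MGO. In contrast, all peaks were fewer in MGO on 23 of 24 chromosomes. Chromosome 7 held by far the most, 63 in control and 99 in MGO. The increase was steep on chromosome 1 (9 and 27), chromosome 11 (2 and 13) and chromosome 13 (3 and 11). It was slight on chromosome X (22 and 25) and chromosome 17 (20 and 22). Chromosomes 2 and Y held 0 of the 171-bp kind in either list. Short-period members were more numerous in MGO on 8 chromosomes, equal on 6 and fewer on 10.

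**Figure D2:**
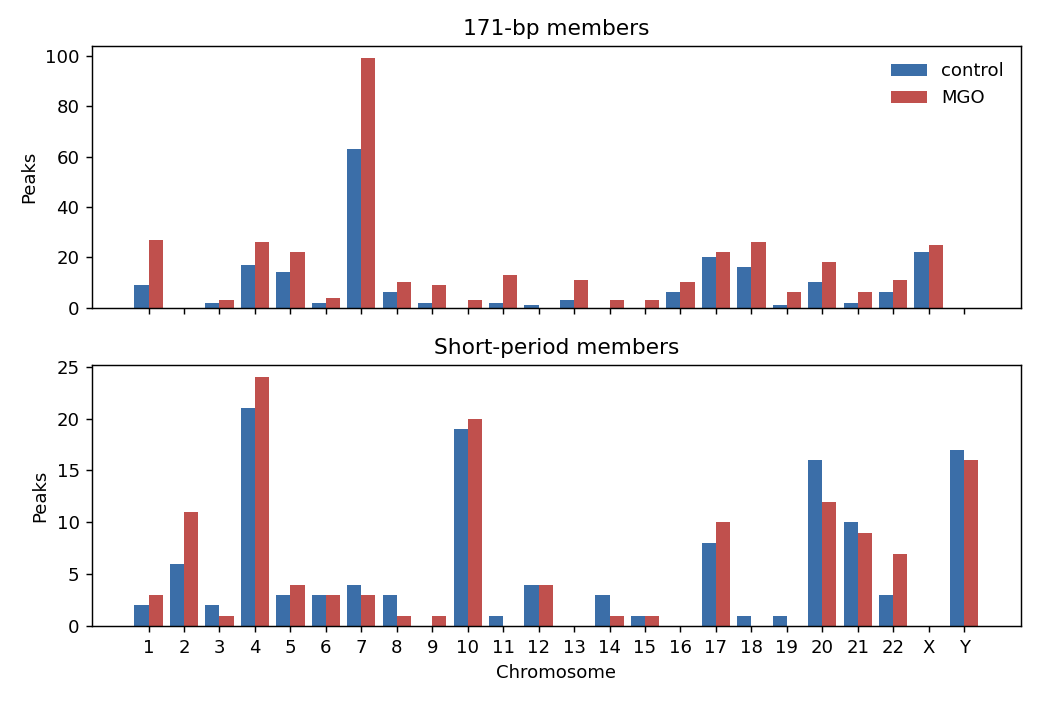
Number of member peaks (y axis) on each chromosome (x axis) in the control (blue) and MGO (red) lists, for 171-bp members above and short-period members below. On chromosome 7 the 171-bp members number 63 in control and 99 in MGO. The short-period members are most numerous on chromosome 4, with 21 and 24.

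To describe the members by array, the reference was scanned in windows of 1 kb for the same self-match, without use of the peaks, and windows within 100 kb were joined. This gave 92 arrays of 2 kb or more that span 72.9 Mb. All but 1 of the 561 171-bp members lay in an array, which follows from the shared criterion. The exception was a control member at chr12:34970396-34970700. Only 27 arrays held a member, and 20 held 5 or more. Each of these 20 had more MGO than control members, though the arrays, like the chromosomes, are not separate observations. The limit of 5 was set on the sum of both lists and of both kinds of member. An array could thus pass through its MGO members, as that of chromosome 14 did with 1 in control and 4 in MGO. Some arrays with fewer members had equal numbers, such as chr3:90264001-91286000 with 1 and 1. Over all arrays there were 2.87 control and 4.99 MGO members per Mb, and members covered 0.174% of array length in control and 0.295% in MGO. Most of the array length was thus outside the member peaks of both lists.

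The density of members per Mb of span differed widely between the arrays that held 5 or more. The span includes stretches between joined windows that did not pass the criterion. Passing windows made up 2.25 of 2.72 Mb in the main array of chromosome 7, but 0.863 of 2.11 Mb in that of chromosome 4. The densities were not adjusted for this. The main array of chromosome 7, chr7:58171001-60888000, had 22.5 members per Mb in control and 35.0 in MGO. That of chromosome 4, chr4:49714001-51822000, followed with 8.06 and 12.3 per Mb. The array of chromosome 18, chr18:15382001-20940000, was the longest of all at 5.56 Mb and had 2.88 and 4.68 per Mb. The array of chromosome X, chrX:58069001-62821000, had 4.63 and 5.26. The array of chromosome 11, chr11:51078001-54425000, rose from 0.598 to 3.88, on 2 control and 13 MGO members. The array of chromosome 2 at chr2:92088001-94189000, 2.10 Mb long, held 0 members in either list. Which parts of the arrays the blacklist removed was not examined.

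The arrays differed in the length of the repeated block around the members. For each member the 20 kb around its centre were compared with themselves at shifts from 300 to 6000 bp, and the shift of highest match was taken. On chromosome 7 this shift was 1022 bp for 147 of the 162 171-bp members, with a median match of 77.8%. The counts for the other chromosomes are also of 171-bp members. On chromosome X it was 2057 bp for 45 of 47 members, at 63.3%, and on chromosome 11 it was 850 bp for 15 of 15, at 83.8%. Chromosome 5, with 340 bp for 35 of 36 members, and chromosome 1, with 340 bp for 31 of 36, had a block of 2 monomers. Over all 171-bp members the best shift was 338 to 346 bp in 191 of 561. By the criterion of at least 90% match, 5 of the 820 members lay in a higher-order array, or 0.610%. The match over 20 kb falls wherever an insertion, a deletion or a changed order of monomers breaks the register, so low values do not show that higher-order repeats are lacking.

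Control members mostly overlapped an MGO peak. Of the control members, 259 of 332 overlapped an MGO peak by at least 1 bp, or 78.0% (Wilson interval 73.3 to 82.1%), against 49.7% of all control peaks. Other distal control peaks did so in 23.4% of cases, so control members exceeded them by 54.6 percentage points (Newcombe interval 49.8 to 58.8). The share was 77.5% among 171-bp members (158 of 204) and 78.9% among short-period members (101 of 128), a difference of −1.46 points whose interval from −10.2 to 7.96 includes 0. For control TSS peaks the share was 84.6%, and the difference of the 171-bp members from them was −7.17 points (−13.4 to −1.94).

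In the reverse direction the kinds parted, but this is tied to the numbers of peaks. Overlapping 171-bp members numbered 158 in control and 152 in MGO, and overlapping other distal peaks 4734 and 4775. The share in 1 direction and the ratio of peak numbers thus largely set the share in the other. Of the MGO members, 250 of 488 overlapped a control peak, or 51.2% (46.8 to 55.6%), against 78.9% of all MGO peaks. Only 152 of 357 MGO 171-bp members did, 42.6% (37.6 to 47.8%), and 205 had no control peak. This was 12.4 percentage points less often than other distal MGO peaks, at 55.0% (difference −12.4, interval −17.6 to −7.15). Short-period MGO members overlapped a control peak in 74.8% of cases (98 of 131), which left a difference of −32.2 points between the kinds (−40.6 to −22.6). For MGO members of both kinds together the difference from other distal peaks was −3.79 points, with an interval from −8.34 to 0.743 that includes 0.

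**Figure D3:**
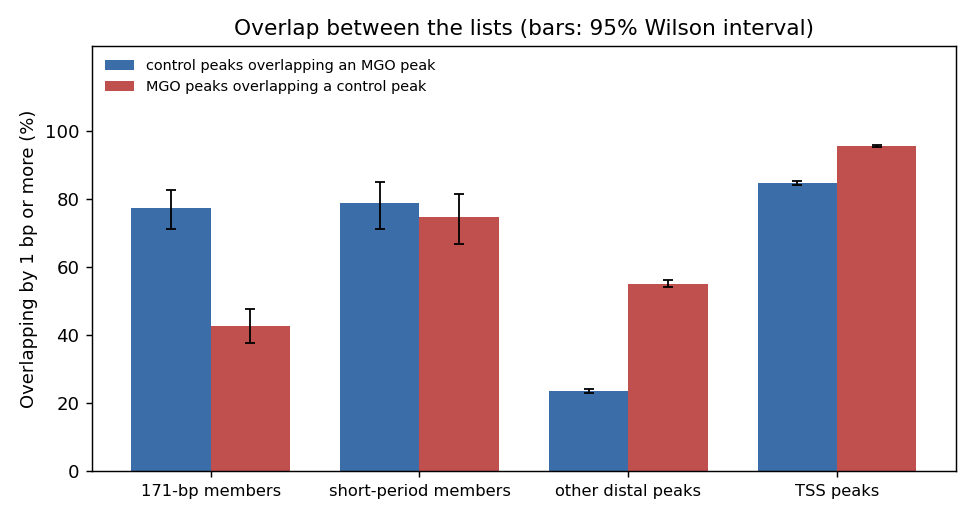
Share of peaks (%, y axis) that overlap a peak of the other list by at least 1 bp, for control (blue) and MGO (red) peaks in 4 classes (x axis), with 95% Wilson intervals. The 171-bp members stand at 77.5% in control and 42.6% in MGO, and are the class with the largest fall from the control to the MGO list, while other distal peaks run the opposite way, from 23.4% to 55.0%. About as many peaks of each class overlap in both lists, so these changes largely mirror the ratios of peak numbers.

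The overlap rose with the strength of the peak. Control 171-bp members with a −log10 p under 5 overlapped an MGO peak in 48.7% of cases (38 of 78), those from 5 to 10 in 93.0% (80 of 86) and those of 10 or more in 40 of 40. Other distal control peaks of the same strength did so in 11.6%, 42.9% and 90.4%. For the MGO 171-bp members the shares were 10.1%, 42.0% and 84.9%, and for other distal MGO peaks 43.5%, 80.2% and 95.3%. The opposite order of members and other distal peaks in the 2 lists thus appeared at each level of strength. It draws on the same overlaps and is not a result separate from the ratios of peak numbers. The 46 control 171-bp members without an MGO peak had a median fold enrichment over background of 2.94. The 205 MGO 171-bp members without a control peak had one of 3.27. Both were below the 3.85 and 4.63 of those that overlapped.

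Where a 171-bp control member overlapped an MGO peak, the fold enrichment was usually higher in MGO. Each such member was paired with the MGO peak of longest overlap, where that choice was mutual. Any further MGO peak under the same member was not used. This gave 158 pairs, and in 127 of these, or 80.4%, fold enrichment was higher in MGO (Wilson interval 73.5 to 85.8%). The MGO peak was itself a member in 139 of the pairs, of which 110, or 79.1%, were higher in MGO (71.6 to 85.1%), a restriction chosen after the values were seen. The median fold enrichment was 3.85 in control and 4.65 in MGO, and the median ratio of the pairs was 1.16, with quartiles of 1.02 and 1.31. In 4720 pairs of other distal peaks the MGO value was higher in 31.8%, with a median ratio of 0.930, and in 12625 pairs of TSS peaks in 25.4%, with a median ratio of 0.920. The 171-bp members differed from other distal pairs by 48.6 percentage points (Newcombe interval 41.5 to 54.2). For short-period control members fold enrichment was higher in MGO in 50 of 100 pairs, with a median ratio of 1.00, and the MGO peak was a member in 94 of them. The −log10 p parted the kinds less, being higher in MGO in 86.7% of the 171-bp pairs (80.5 to 91.1%) and 83.0% of the short-period pairs (74.5 to 89.1%). It was higher in MGO in 30.0% of other distal pairs and 22.6% of TSS pairs. Widths moved alongside. MGO peaks were wider in 64.6% of the 171-bp pairs, with a median ratio of 1.07, in 60% of the short-period pairs, with a median ratio of 1.01, and in 28.7% of the other distal pairs, with a median ratio of 0.791. Fold enrichment is relative to the background that the caller estimated in each library.

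**Figure D4:**
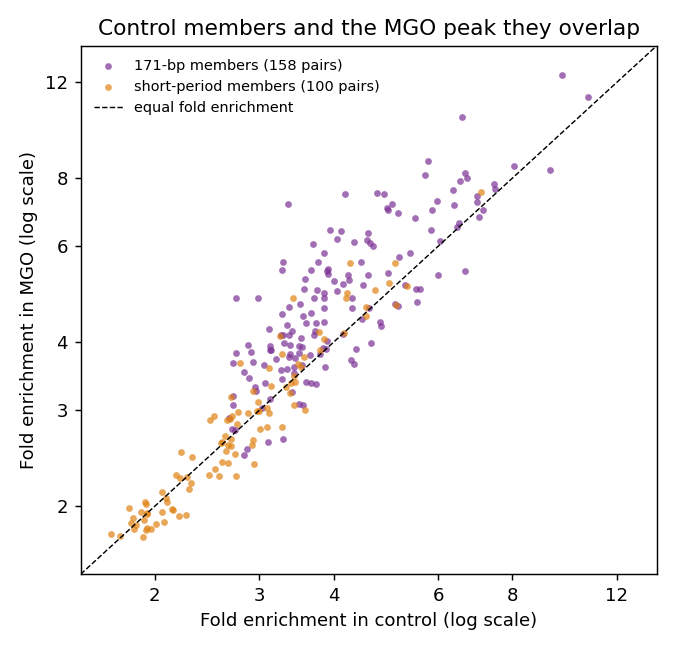
Fold enrichment over background in MGO (y axis, log scale) against control (x axis, log scale) for control members and the MGO peak paired with each. The MGO peak is the one of longest overlap, member or not. Each point is a pair and the dashed line marks equal values. Of the 158 pairs of 171-bp members (purple) 127 lie above the line, and of the 100 pairs of short-period members (orange) 50 do.

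The strongest 171-bp members stood on chromosome 17, and were chosen for naming after their values were seen. The control peak chr17:24187760-24188800, the source of the first sequences above, had a fold enrichment of 10.7 in control and 11.3 in MGO, where its −log10 p rose from 33.7 to 44.4. The peak chr17:24812896-24814427 had 9.71 in control and 12.4 in MGO, the highest value of any member. The peak chr17:26619364-26620236 had 7.47 and 7.79, with a −log10 p of 31.9 in control and 50.4 in MGO. Not every strong member was higher in MGO: chr7:59908379-59908765, whose box is printed above, had a fold enrichment of 9.25 in control and 8.28 in MGO. Among 171-bp members seen in MGO only, the highest −log10 p were 14.5 at chr18:18284292-18284634, 13.9 at chr7:59235675-59235949 and 13.5 at chr7:60288156-60288719, with fold enrichments of 6.16, 5.94 and 5.91. Among 171-bp members seen in control only, the highest was 9.90 at chr16:36521818-36522278, with a fold enrichment of 5.04, followed by 6.13 at chr7:60330514-60330936. All of these lie outside annotated genes, as do all 561 of the 171-bp members. The nearest TSS was 32.1 kb away or farther in control and 30.9 kb in MGO.

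The sequence under the 171-bp members recurs many times in the reference, which bears on where a read can be placed. Of each peak every 10th stretch of 50 bp, the length of a read, was looked up on both strands of the 24 chromosomes and the unlocalized and unplaced contigs. The median 171-bp member had stretches present 880 times in control and 718 times in MGO. In 123 of 204 control and 235 of 357 MGO members, 0 of the stretches examined occurred only once. In other distal peaks this was the case for 1.82% in control and 4.46% in MGO. The median short-period member had stretches present once. Stretches of 200 bp, which a read pair may span, were less repetitive, but 84 control and 176 MGO members of the 171-bp kind still had none that occurred once. The methods of the study state that reads mapping to several places were removed. How the reads under these peaks were assigned among the copies cannot be seen in the lists.

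The higher number in MGO was seen at each degree of recurrence. Members of the 171-bp kind without a unique stretch of 200 bp numbered 84 in control and 176 in MGO, a ratio of 2.10 (1.61 to 2.75). Those with some, but under 50%, numbered 51 and 79, a ratio of 1.55 (1.08 to 2.25). Those with at least 50% of their stretches unique numbered 69 and 102, a ratio of 1.48 (1.08 to 2.04). The overlap with the other list was lower in the least unique group, at 66.7% in control and 30.1% in MGO, than in the most unique, at 87.0% and 55.9%. This division rests on stretches of 200 bp of the reference, whereas a read is 50 bp, so it cannot decide the part of read placement. That part was not tested.

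**Figure D5:**
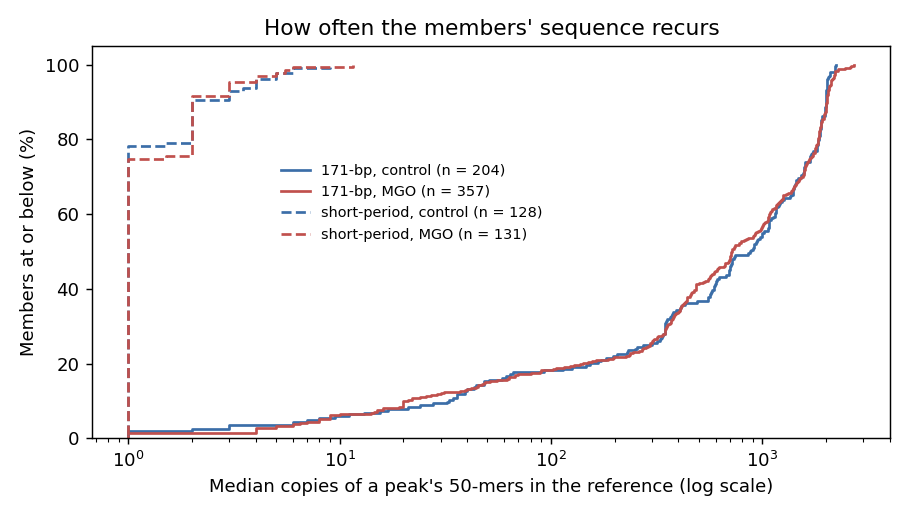
Cumulative share of members (%, y axis) by the median number of copies in the reference of the 50 bp stretches of a peak (x axis, log scale), for 171-bp (solid) and short-period (dashed) members of the control (blue) and MGO (red) lists. The 171-bp curves of the 2 lists run together and have medians of 880 and 718 copies, while the short-period members have a median of 1.

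The short-period members were wider and less enriched than the 171-bp members, and were nearly as many in MGO as in control, at 131 and 128. Their median width was 748 bp in control and 681 bp in MGO, against 457 and 456 bp for the 171-bp members. Their median fold enrichment was 2.73 and 2.64, against 3.56 and 3.79. In 199 of 259 the shorter period was 5 bp or a multiple of it. These carried a median of 107 copies of ATTCC per kb on either strand, against 3.06 per kb in 171-bp members and 1.74 in other distal peaks. They numbered 99 in control and 100 in MGO, most of them on chromosome 4 (19 and 22), chromosome 10 (17 and 18), chromosome Y (17 and 16) and chromosome 20 (16 and 12). All 33 members placed on chromosome Y of the reference were short-period members. Whether their reads came from that chromosome or from copies elsewhere was not tested. The 60 with other periods were richer in GC, with medians of 57.1% in control and 56.1% in MGO, and were found in genes as well as between them. The members with a multiple of 5 bp overlapped a peak of the other list in 85.9% of cases in control and 83.0% in MGO, and those with other periods in 55.2% (16 of 29) and 48.4% (15 of 31).

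The strongest members by −log10 p were mostly short-period ones with a low fold enrichment. The highest in both lists, and the strongest overlapping pair of members, was intergenic at chr5:49657748-49661633 in control and chr5:49657743-49661635 in MGO. It had a −log10 p of 79.0 and 99.6 at a fold enrichment of only 2.75 and 2.83. The peak chr4:49149160-49149864 had a −log10 p of 73.4 in control and 63.4 in MGO, the only one of the 5 highest control members to be lower in MGO. The peak chr10:41859301-41860813 had 56.5 and 77.2, chr10:41879280-41879642 had 35.9 and 37.7, and chr2:89836279-89837191 had 35.4 and 52.7. The fifth in the MGO list was the 171-bp member at chr17:26619265-26620400. The widest member of each list was the same region of chromosome 4, chr4:49101385-49105621 with 4237 bp in control and chr4:49101152-49105613 with 4462 bp in MGO, at a fold enrichment of 1.75 and 1.77.

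A few short-period members lay in genes, and none of the 171-bp ones did. Of the 259, 41 were intronic, 4 exonic and 214 intergenic, and 8 had a TSS within 1000 bp. The strongest intronic one, named after its values were seen, was the unit of 9 bp in SERINC2 at chr1:31431789-31432183, with a fold enrichment of 5.07 in control and 5.60 in MGO and a −log10 p of 21.3 and 35.9. A unit of 34 bp in an intron of TMEM242, chr6:157310457-157314283, also named after its values were seen, had 2.63 and 2.69 over 3827 bp. A unit of 34 bp in DOCK1, which encodes a guanine nucleotide exchange factor for RAC, was named in the same way and had 3.79 and 3.87. These examples were higher in MGO, whereas over all short-period pairs 50 of 100 were.

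The control member of lowest match, at 50.1%, was chr7:58357205-58357696 with a fold enrichment of 3.33, and the control peak next below it, at exactly 50%, was chr11:51150437-51151445 with 4.43. In MGO the corresponding peaks were chr10:38918830-38920208 with 4.92 and chr1:124613165-124613505 with 3.66. Peaks with a match from 40 to 50% numbered 195 in control and 366 in MGO, of which 113 and 229 lay in the arrays. Non-member peaks inside the arrays numbered 129 and 247, a ratio of 1.91 (exact binomial interval 1.54 to 2.39). The higher number in MGO thus extended to the peaks of the arrays that the rule left out.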

How the data were processed

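ATAC-seq libraries of control and MGO-treated 293T cells, 1 each, were analysed. Per the labels and methods, the authors aligned reads with BWA-MEM 0.7.15 to GRCh38, removed mitochondrial and multi-mapping reads, subsampled to equal depth and called broad peaks per library with MACS2, whose version is not given in the sources used here, outside the ENCODE blacklist. The deposited lists give fold enrichment over background (a ratio), −log10 p, −log10 q and a display score, which the authors' caller makes from the q-value and which was not used. They hold no read counts, so the depth behind a peak is unknown.

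All deposited peaks on the 24 chromosomes were used, 35515 of 36142 in control and 22379 of 22884 in MGO. The study's own later steps used only peaks that pass a −log10 q of 2, and the deposited lists also hold weaker ones. At least 2 was reached by 77.7% of control and 80.9% of MGO members. Of other distal peaks, 49.2% in control and 44.6% in MGO reached it. Sequence was read from hg38, the same assembly, with bases compared only within the peak and its flanks. TSSs came from GENCODE 44. Shares carry Wilson, differences Newcombe and ratios exact binomial 95% intervals. No test between conditions was possible with 1 library each. The regions to be named were the 5 members of highest −log10 p in each list, the strongest overlapping pair, the widest members, those nearest the threshold, and arrays with 5 or more members. Others are identified as chosen later. The members, the rule and the division by short period were set with earlier results of these data known. The alternatives were a stricter q-value, other thresholds, flanks, overlaps and merging, and leaving out short-period members or sex chromosomes. Python 3.11.15, numpy 2.4.6, scipy 1.17.1 and numba 0.67.0 were used, and the steps were tested on simulated repeats of known divergence.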

Additional observations from a re-analysis of the deposited data

How the results depend on the processing

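No paired analysis was possible because each condition has a single library here. Of 71 values recomputed under another setting, 42 stayed within the interval of the reported value, 6 of them from merging peaks within 1000 bp, which joined none and so tests nothing, and 29 moved beyond it. The ratio of member numbers stayed above 1, and control members overlapped MGO peaks more often than other distal control peaks, under each setting in which these were computed. The differences from other distal peaks were not computed with members found by identity to 1 monomer or without chromosome 7. The difference of MGO members from other distal MGO peaks, whose interval included 0, changed sign under some settings. Where the construction of a setting does not show it, the cause was not tested.

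In the order of percent of control members overlapped, percent of MGO members overlapped, and the differences from other distal peaks in control and in MGO, a limit of 2 on −log10 q gave 88.0, 55.7, 62.3 and −11.1. A match over 60% gave 83.5, 61.2, 59.5 and 6.44, and no flank gave 72.9, 45.7, 49.6 and −9.77. A match over 40% moved the difference in MGO to −8.66. Without the short-period members the number ratio was 1.75, the share of MGO members overlapped 42.6% and its difference −12.4. Asking for 50% of the peak to be covered gave 72.9% of control members. Overlap of at least 50% of both peaks gave 69.0% and 45.3%, and a difference of 8.51 in MGO. Members in higher-order arrays were 0% with a match over 60%, 8.17% at a limit of 80% and 0% at 95%.

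Other settings were chosen after seeing the data. With equal numbers of peaks in the lists, those of highest −log10 p, the number ratio was 1.98, 91.1% and 44.7% of members overlapped, and the difference in MGO was 1.86. With members found by at least 70% identity to 1 monomer the ratio was 1.84 and 40.5% of MGO members overlapped. Leaving out chromosome 7 gave a ratio of 1.46. Pairs whose MGO peak was a member too were higher in MGO in 79.1% of the 171-bp kind and 52.1% of the short-period kind.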
